A study of Mus musculus with 12 samples.

Results

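Disease-associated macrophage genes were examined in RNA sequencing libraries of perivascular macrophages from mouse brain, which sit in the spaces around cerebral vessels. The set was a fixed list of 10 gene symbols, Trem2, Tyrobp, Spp1, Itgax, Cst7, Gpnmb, Lgals3, Cd9, Fabp5 and Ch25h, and all 10 were found among the 17358 genes of the table. The libraries came from C57BL mice aged 18 months (aged, n = 5) and 3 months (young, n = 7), with no treatment or engineered allele in the labels. The labels give no sex, sort marker or batch, and the number of animals or cells behind a library is not stated. The submitters call the libraries biological replicates, and p-values measure the spread between them. Each was made with SMART-seq2, which copies full-length polyadenylated RNA from few cells, without strand marks or molecular identifiers.

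Microglia and macrophages near amyloid plaques, demyelinated tissue or lipid-rich lesions are known to switch on a shared set of lipid-handling and phagocytic genes, described as disease-associated microglia or lipid-associated macrophages. TREM2 is a surface receptor that binds lipids and lipoproteins and signals through the adaptor TYROBP (DAP12), whose cytoplasmic ITAM recruits the kinase SYK. In mice lacking Trem2 the later steps of this programme are known to be blunted. Most of the remaining genes of the set are known as induced members of that programme.

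Upstream sequence was taken for 5 of the 10 genes to set genes with contrasting levels side by side: Trem2 and Cd9, which were present in every library, Spp1 and Ch25h, which were absent from some, and Itgax, which had at most 1 count anywhere. The 250 bases before the annotated start are from RefSeq on GRCm38.p6, written 5′ to 3′ on the gene's strand, and 8 of the 10 genes had an entry. Capitals mark matches, on either strand, to 6 short motifs: GAGGAAGT (bound by ETS factors such as PU.1), TGANTCA (AP-1), CACGTG (E-box), TCATGTGA (M-box, MITF), TGACGTCA (cAMP response element) and GGGCGG (GC box). No motif contains another.
Trem2 chr17:48346151-48346400 (+ strand): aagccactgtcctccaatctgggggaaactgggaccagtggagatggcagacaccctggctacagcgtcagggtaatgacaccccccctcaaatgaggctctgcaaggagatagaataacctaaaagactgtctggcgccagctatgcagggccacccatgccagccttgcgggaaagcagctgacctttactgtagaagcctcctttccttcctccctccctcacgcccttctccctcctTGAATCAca
Itgax chr7:128129300-128129549 (+ strand): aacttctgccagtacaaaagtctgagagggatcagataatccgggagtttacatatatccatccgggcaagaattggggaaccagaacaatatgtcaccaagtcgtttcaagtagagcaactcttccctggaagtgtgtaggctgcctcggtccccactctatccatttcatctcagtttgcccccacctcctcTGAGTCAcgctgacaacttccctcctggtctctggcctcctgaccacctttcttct
Cd9 chr6:125494761-125495010 (- strand): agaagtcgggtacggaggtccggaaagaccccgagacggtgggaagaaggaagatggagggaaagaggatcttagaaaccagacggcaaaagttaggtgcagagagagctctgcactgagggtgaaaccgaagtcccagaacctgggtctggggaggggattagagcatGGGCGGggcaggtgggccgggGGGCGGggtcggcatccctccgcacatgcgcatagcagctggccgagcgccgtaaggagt
Spp1 chr5:104434861-104435110 (+ strand): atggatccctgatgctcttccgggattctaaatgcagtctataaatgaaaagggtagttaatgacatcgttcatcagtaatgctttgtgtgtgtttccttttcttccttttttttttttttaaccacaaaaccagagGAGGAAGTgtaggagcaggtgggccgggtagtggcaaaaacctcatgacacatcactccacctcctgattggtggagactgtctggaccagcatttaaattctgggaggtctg
Ch25h chr19:34475149-34475398 (- strand): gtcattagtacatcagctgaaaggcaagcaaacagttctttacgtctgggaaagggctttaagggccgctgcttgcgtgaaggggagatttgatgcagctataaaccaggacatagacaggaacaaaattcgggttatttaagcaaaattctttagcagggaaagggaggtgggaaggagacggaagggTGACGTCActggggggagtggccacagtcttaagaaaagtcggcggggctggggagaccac

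The AP-1 letters stood at position -9 of Trem2 and -56 of Itgax, counted from the first base before the start as -1. Of 32851 RefSeq windows of this length, 6.75% held them. The window shown for Spp1, at the first of its annotated starts, held the ETS letters at -113, found in 2.44% of all windows, while the window at its second start (chr5:104435942-104436191) held none of the 6 motifs. The window of Ch25h held the cAMP response element at -61, found in 1.55%. Cd9 had GC boxes at -81 and -60, and 32.74% of all windows held at least one. No window of the 8 genes held the E-box or M-box letters, found in 6.02% and 0.85% of all windows. Trem2 and Itgax therefore shared a motif in this window although their levels differed as described next, and these matches are descriptions of letters, not of bound sites.

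Library totals ranged from 23214847 to 30628808 counts after rounding, so that 3 counts, used as the floor, equalled 0.098 to 0.129 CPM (counts scaled to a common library total). Aged libraries 1, 3 and 4 stood apart on the first principal component (16.0% of the variance), with scores from 79.8 to 100.1, against -77.9 to 28.6 for the other 9. Young libraries 4 and 5 lay at the other end, at -77.9 and -75.1. Each tested member is also given without aged libraries 1, 3 and 4, a fit that keeps only aged libraries 2 and 5 in the aged group. Perivascular macrophage markers were abundant, with summed levels of 11830 to 18040 normalised CPM in aged and 12300 to 20470 in young libraries. All 10 of these markers were detected in both groups, and microglia markers were present too, at 4078 to 6128 and 4080 to 7502. Endothelial markers summed to at most 3.04 in aged and 0.471 in young libraries. Choroid plexus epithelium markers separated the groups, with sums of 199.6 to 1111 in aged and 59.4 to 147 in young libraries that did not overlap. One of 9550 tested genes, Ttr, passed the threshold over all genes as higher in aged libraries, and it belongs to this list. Of its 5 genes 3 were tested, all with positive log2 fold changes (Ttr 2.68, Kcnj13 6.75 and Prlr 2.71). Prlr had 344 counts in aged library 2, 0 to 18 in the other aged libraries and 2 to 48 in young ones. Folr1 had 450 counts in aged library 2 and 0 in every other library. Kcnj13 averaged 40.8 ± 26.6 in aged libraries, against 0.375 ± 0.992 in young ones (adjusted p = 0.372 by edgeR and 0.0141 in its bias-adjusted mode). The sum of these markers thus moved with age beside every comparison given here, and its part in the members' values was not tested. Throughout, normalised CPM are CPM scaled by TMM factors, errors are SD unless named SE, and adjusted p-values come from edgeR's quasi-likelihood test with Benjamini-Hochberg adjustment over all tested genes. In such bulk samples fewer cells of a type and less RNA per cell cannot be told apart.

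The 10 genes included one of the most abundant transcripts of these libraries and some that were not detectable, and the order at the top was the same in all libraries. On the deposited FPKM scale, which accounts for transcript length, Tyrobp averaged 7164 ± 2743 in aged libraries, against 9665 ± 1539 in young ones. Trem2 averaged 221 ± 140 in aged libraries, against 323 ± 100 in young ones, and Cd9 37.7 ± 31.1 in aged libraries, against 126 ± 57.9 in young ones. Tyrobp exceeded Trem2 and Trem2 exceeded Cd9 in 12 of 12 libraries, and Cd9 exceeded Spp1 in 10 of 12. Below Cd9 the order was not fixed. Spp1 exceeded Ch25h in 6 of 12 libraries, Ch25h exceeded Lgals3 in 5 and was below it in 6, Lgals3 exceeded Fabp5 in 8, and Fabp5 exceeded Cst7 in 8. Neighbours in this stretch thus did not differ beyond their spread. Gpnmb and Itgax formed the bottom, at or under 3 counts in all 12 libraries.

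**Figure D1:**
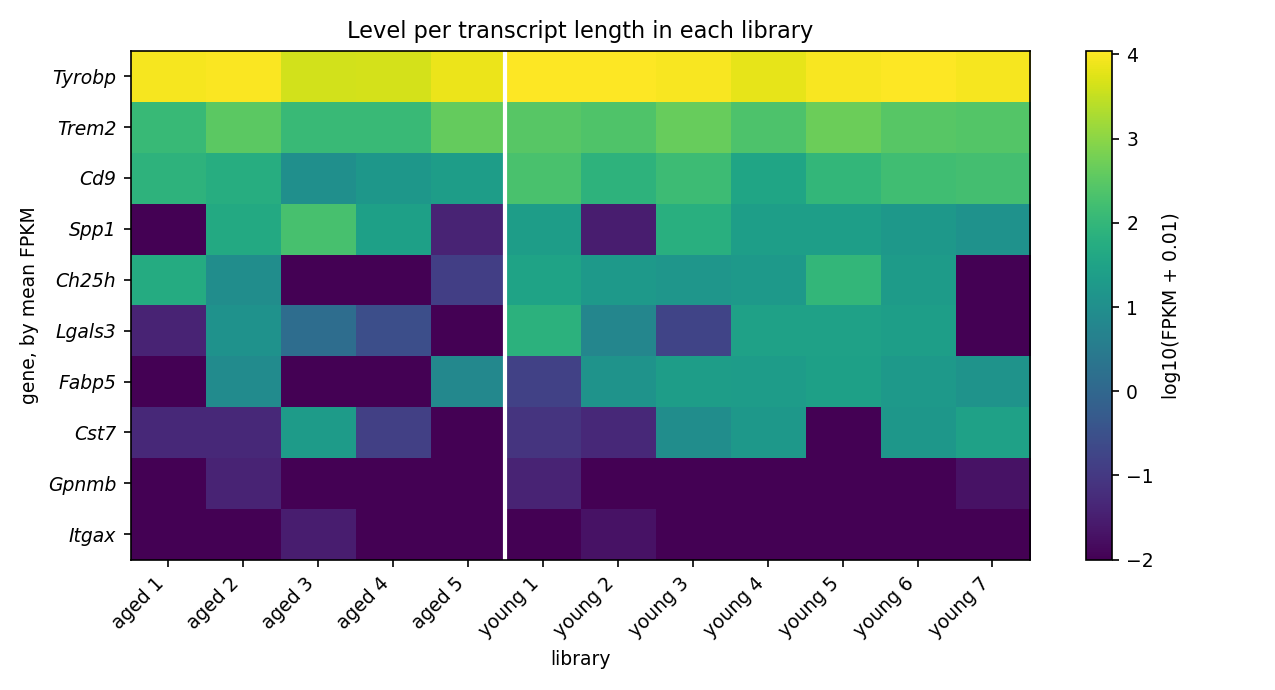
Level of each gene (rows, ordered by mean FPKM) in each library (columns, aged left of the white line, young right of it) as log10(FPKM + 0.01). Tyrobp, Trem2 and Cd9 were filled in every column, Spp1 to Cst7 switched between dark and bright from library to library, and Gpnmb and Itgax were dark throughout.

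None of the 10 genes passed the test between aged and young libraries. The test called 0.0105% of the 9550 tested genes as higher in aged libraries and 0% as lower. Of the 10 genes, 8 passed the filter on low counts and were tested, and none was called by edgeR, by edgeR with its bias-adjusted mode, by DESeq2, by limma with voom weights or by limma on log2(FPKM + 1). Of all tested genes, the bias-adjusted mode called 0.377% as higher and 0.0209% as lower, DESeq2 0.687% and 0.612%, voom 0.0209% and 0%, and limma on FPKM 0.0314% each way. Without a filter 0.0751% were called as higher. Leaving out aged library 2 gave 0.614% as higher and 0.141% as lower, and leaving out aged library 3, aged library 5, young library 1 or young library 6 gave 0.01%, 0.0302%, 0.0213% and 0.0107% as higher, with no member among them. Other omissions and the replicate block called 0%. At an unadjusted p under 0.05, 1 of the 8 was lower (Cd9), where 2.12% of all tested genes were lower and 3.85% higher. No member had groups that did not overlap, as 0.325% of tested genes did with aged libraries above and 0.272% with aged libraries below. The log2 fold change, aged over young, was negative for 7 of 8, against 50.5% of all tested genes, and under -1 for 4 of 8, against 16.1%. The median was -1.0 against -0.01 over all tested genes. Lgals3, Fabp5, Ch25h and Spp1 had 10 or more counts in 5 to 6 of the 7 young libraries but in only 2 to 3 of the 5 aged ones, so young libraries alone could carry them past the filter, and these counts are a description only.

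**Figure D2:**
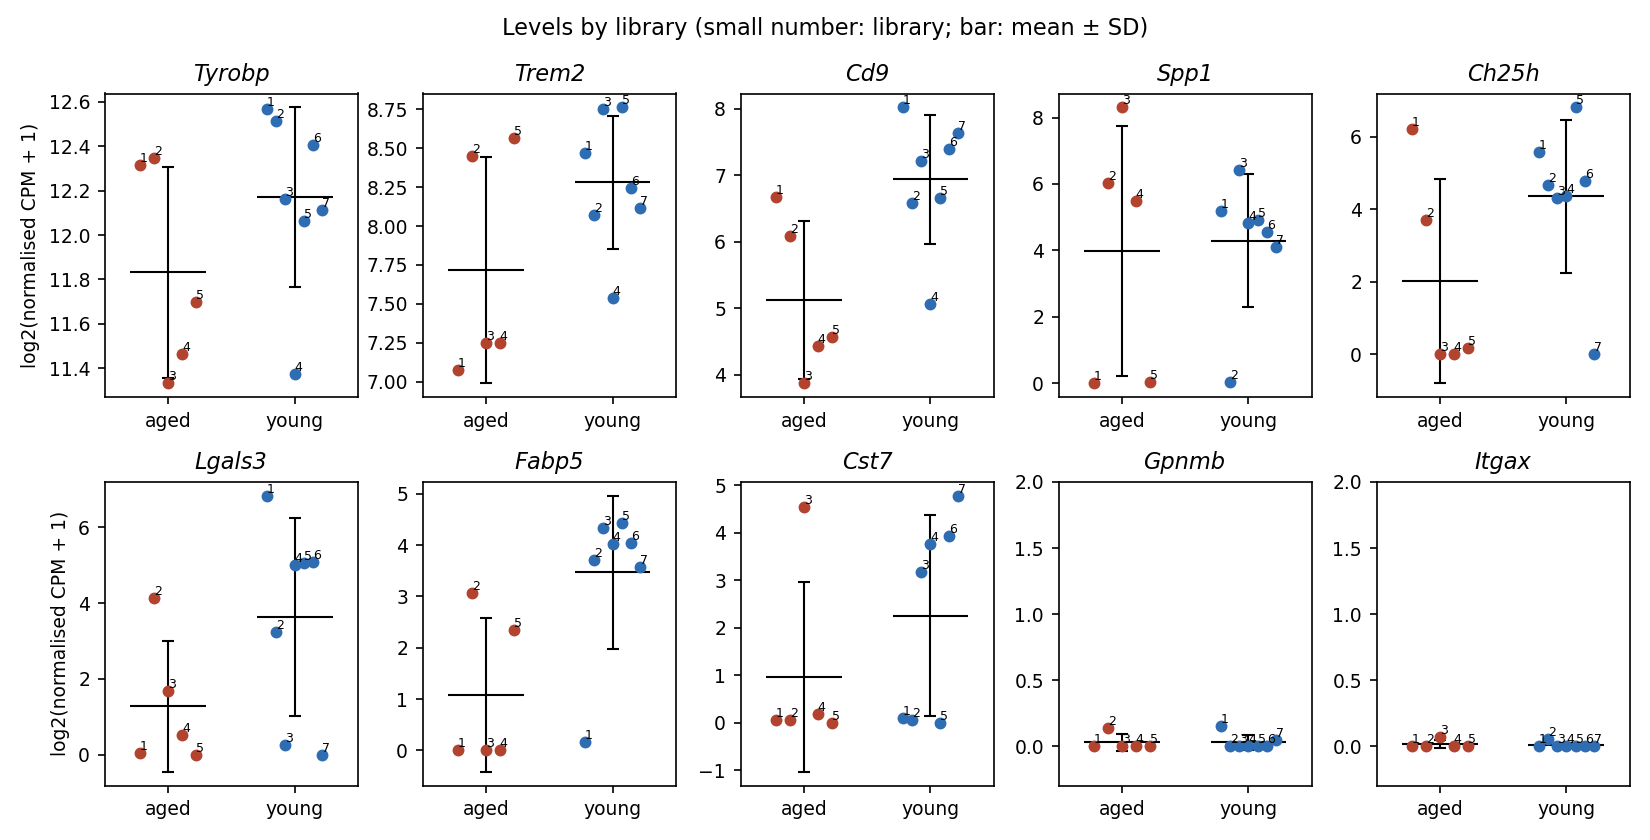
Level of each gene as log2(normalised CPM + 1) in each aged (left, red) and young (right, blue) library, with the library number beside each point and bars for mean ± SD on that scale. The groups overlapped for all 10 genes, and several genes sat at 0 in some libraries and well above it in others.

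Among the receptors and their adaptor, Trem2 and Tyrobp were strongly expressed and Itgax was not. Trem2 (Entrez 83433, chr17:48346401-48354147 on GRCm38) was at 134, 349, 151, 151 and 378 normalised CPM in aged libraries 1 to 5. In young libraries 1 to 7 it was at 353, 268, 431, 185, 433, 303 and 276. Aged libraries 1, 3 and 4 lay below every young library, whereas aged libraries 2 and 5 lay within the young range. Mean levels were 232.5 ± 120 in aged libraries, against 321 ± 90.6 in young ones, with a log2 fold change of -0.47 ± 0.31 (SE) and an adjusted p of 0.999 by edgeR. Leaving out aged libraries 1, 3 and 4 turned its sign (0.17).

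Tyrobp (Entrez 22177, chr7:30413760-30417585) encodes the ITAM adaptor that TREM2 and several other myeloid receptors need for signalling. Only 0.2% of tested genes had a higher mean CPM. Normalised CPM were 5088, 5211, 2578, 2825 and 3326 in aged libraries 1 to 5. They were 6065, 5841, 4579, 2654, 4275, 5425 and 4433 in young libraries 1 to 7. Aged libraries 3, 4 and 5 and young library 4 were low, and the remaining 8 lay at or above 4275. Tyrobp had a log2 fold change of -0.32 ± 0.24 (SE, adjusted p = 0.999 by edgeR), and -0.15 without aged libraries 1, 3 and 4. Tyrobp and Trem2 had BCVs (biological coefficients of variation, the fitted spread between libraries) of 0.33 and 0.42, against a median of 1.24 over all tested genes. A lower BCV was found for 1.7% and 7.7% of tested genes, and a higher mean CPM for 0.2% and 5.6%. Whether their spread was low for genes of their level was not tested.

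The FPKM of Tyrobp was many times that of Trem2 in every library, but the ratio differed between libraries. It was 78.5, 31, 34.1, 37.4 and 18.3 in aged libraries 1 to 5, and 35.3, 45.2, 22, 29.7, 20.2, 37.1 and 32.7 in young libraries 1 to 7. The adaptor-to-receptor ratio of aged library 1 was above all others and that of aged library 5 below all others, so aged libraries held both extremes.

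Itgax (Entrez 16411, chr7:128129547-128150657) encodes CD11c, the alpha subunit of complement receptor 4 and a common marker of dendritic cells and of activated microglia. It had 1 count in aged library 3, 1 in young library 2 and 0 in the other 10 libraries. Both groups were thus under the floor of 3 counts and no fold is given. Itgb2, which encodes its beta partner, was at 66.1 ± 23.3 normalised CPM in aged libraries, against 39.3 ± 18.8 in young ones. Itgam, the alternative alpha subunit CD11b, was at 85.4 ± 36.8 in aged libraries, against 53.95 ± 25.8 in young ones, and neither passed (adjusted p = 0.999 for both by edgeR). Of 6 dendritic cell markers, Flt3, Clec9a and Ccr7 had at most 14 counts in any library and Cd209a was abundant in all. Zbtb46 had 0 to 833 counts in aged and 0 to 663 in young libraries, and Xcr1 2 to 538 in aged and 2 to 135 in young libraries.

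The secreted members were present in some libraries and absent from others. Spp1 (Entrez 20750, chr5:104435118-104441050) encodes osteopontin, a secreted integrin and CD44 ligand made by perivascular macrophages among other cells. It was at 0, 64.3, 316, 44.0 and 0.0335 normalised CPM in aged libraries 1 to 5. In young libraries 1 to 7 it was at 35.3, 0.0357, 84.5, 27.1, 29.1, 22.3 and 16.1. Aged libraries held the highest and the lowest value, and 6 of 7 young libraries lay between 16.1 and 84.5. Its fitted log2 fold change was 1.47 ± 1.39 (SE, adjusted p = 0.999 by edgeR), and it was -0.19 without aged library 3 and 0.09 without aged libraries 1, 3 and 4. With all 12 libraries it was -1.92 by limma with voom weights and -0.38 by limma on log2(FPKM + 1), so the direction of Spp1 was not settled.

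Lgals3 (Entrez 16854, chr14:47367751-47386160) encodes galectin-3, a beta-galactoside-binding lectin that is secreted and also gathers on damaged lysosomes. Its levels in aged libraries 1 to 5 were 0.0402, 16.4, 2.2, 0.431 and 0 normalised CPM. Young libraries 1 to 7 held 113, 8.5, 0.202, 30.8, 32.5, 33.1 and 0. It was thus above 3 counts in 3 of 5 aged and 6 of 7 young libraries, and 4 young libraries exceeded every aged one. The log2 fold change was -3.03 ± 1.84 (SE, adjusted p = 0.999 by edgeR), the most negative of the 8 tested genes, with a range of -5.54 to -2.2 on leaving out single libraries. Without aged library 2 it was -5.54 and without aged libraries 1, 3 and 4 it was -1.89. Monocyte markers, another known source of Lgals3, summed to 0.304 to 54.9 normalised CPM in aged and 0.214 to 75.4 in young libraries, and F10 had at most 2 counts in any library. Of 5 such markers 1 (Ccr2) was tested and had a positive log2 fold change, and their part in Lgals3 was not tested.

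Cst7 (Entrez 13011, chr2:150570415-150578944) encodes cystatin F, an inhibitor of cysteine proteases that acts within the lysosomes of immune cells. Aged libraries 1 to 5 held 1, 1, 448, 3 and 0 counts. Young libraries 1 to 7 held 2, 1, 240, 403, 0, 414 and 802 counts. Expression was therefore found in 1 of 5 aged and 4 of 7 young libraries, and the remaining 7 libraries were at or under the floor. Where present it was at 22.4 normalised CPM in aged library 3, and at 8.07, 12.6, 14.2 and 26.4 in young libraries 3, 4, 6 and 7. Cst7 had a log2 fold change of -0.95 ± 2.06 (SE, adjusted p = 0.999 by edgeR), and -7.29 without aged library 3, where the fitted value depends on the prior count.

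Cst7 is also known from T cells and NK cells, whose summed markers are given here for each set of libraries. The 6 markers in the table summed to 5.15 normalised CPM in aged library 3 and to 0 to 3.34 in the other aged libraries. They summed to 26.1, 11.6, 5.16 and 39.8 in young libraries 3, 4, 6 and 7, and to 1.25 to 1.85 in young libraries 1, 2 and 5. The lowest sum in a library with Cst7 was thus 5.15 and the highest in a library without it 3.34. This split of the libraries was made after their values were seen and is a description only. The markers differed from library to library: Nkg7 had 902 counts in young library 7 and 371 in young library 4, Cd2 had 627 in young library 3, Cd3g had 151 in young library 6 and Cd3d had 101 in aged library 3. Cd3d was also found in libraries without Cst7, with 58 counts in aged library 1 and 47 in young library 5. Ncr1 was at 0 in all aged libraries and had at most 2 counts in young ones. Of the 6, 2 were tested, both with negative log2 fold changes and neither called, and their part in Cst7 was not tested.

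The membrane proteins outside the receptor group were Cd9, the member with the smallest p, and Gpnmb, which was not detectable. Cd9 (Entrez 12527, chr6:125460266-125494791) encodes a tetraspanin that organises membrane microdomains with integrins. Levels in aged libraries 1 to 5 were 101, 66.8, 13.7, 20.6 and 22.9 normalised CPM. Young libraries 1 to 7 held 258, 94.9, 148, 32.6, 99.6, 168 and 197. All aged libraries lay below 4 of the 7 young ones, aged libraries 3, 4 and 5 lay below all 7, and aged libraries 1 and 2 overlapped the lower young values. Means were 44.9 ± 37.6 in aged libraries, against 143 ± 74.5 in young ones (log2 fold change -1.67 ± 0.56, SE). The unadjusted p was 0.00826, which ranked Cd9 at 177 of 9550 tested genes, and the adjusted p was 0.446 by edgeR. The call was not made in any of the 20 alternatives, in which the log2 fold change ranged from -2.21 to -1.44 and the adjusted p was at least 0.114. Without aged libraries 1, 3 and 4 it was -1.66.

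Cd9 is also known from myelinating oligodendrocytes. Of 6 oligodendrocyte markers 4 were tested, 3 with negative log2 fold changes, and their sum was 27.2 to 79.2 normalised CPM in aged and 29.0 to 85.0 in young libraries. Mobp was at 0 to 0.0958 in aged and 2.71 to 40.2 in young libraries, and Mog had 12 counts in aged library 2 and 0 in every other library. Mobp had an adjusted p of 0.177 by edgeR and 1.21e-09 by DESeq2. The summed list overlapped between the groups, Mobp did not, and their part in Cd9 was not tested.

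Gpnmb (Entrez 93695, chr6:49036546-49070929) encodes a transmembrane glycoprotein of lipid-laden macrophages whose transcription is known to follow MiT/TFE factors. It had 3 counts in aged library 2, 3 in young library 1, 1 in young library 7 and 0 elsewhere, at or under the floor in both groups, so no fold is given. The factors themselves were present: Mitf was at 73.3 ± 42.0 normalised CPM in aged libraries, against 24.9 ± 14.4 in young ones (log2 fold change 1.56, adjusted p = 0.845 by edgeR), and Tfec at 67.2 ± 32.8 and 49.5 ± 17.9. Leaving out aged libraries 1, 3 and 4 gave 0.69 for Mitf and 0.82 for Tfec on the log2 fold scale. None of the 4 factors passed by edgeR, at an unadjusted p under 0.05 or by DESeq2.

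The lipid-handling members were Fabp5 and Ch25h. Fabp5 (Entrez 16592, chr3:10012548-10016607) encodes a cytosolic carrier of long-chain fatty acids. It was at 0, 7.35, 0, 0 and 4.12 normalised CPM in aged libraries 1 to 5. Young libraries 1 to 7 held 0.111, 12.2, 19.2, 15.2, 20.7, 15.6 and 10.9. Young libraries 2 to 7 exceeded every aged library, and young library 1, with 3 counts, lay at the floor. The 3 aged libraries without Fabp5 were 1, 3 and 4. Fabp5 had a log2 fold change of -2.54 ± 1.82 (SE, adjusted p = 0.999 by edgeR), and -1.22 without those 3 libraries. Of the fatty acid binding proteins Fabp3, Fabp4 and Fabp7 in the table, Fabp7 alone was tested, at 15.9 ± 18.4 in aged libraries, against 7.63 ± 9.15 in young ones, with a log2 fold change of 1.06 that was -0.41 without aged libraries 1, 3 and 4.

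Ch25h (Entrez 12642, chr19:34473778-34475164) encodes cholesterol 25-hydroxylase, which makes 25-hydroxycholesterol, a suppressor of sterol synthesis and the precursor of a ligand of the receptor GPR183. Aged libraries 1 to 5 were at 72.9, 11.9, 0, 0 and 0.134 normalised CPM. Young libraries 1 to 7 were at 46.3, 24.4, 18.9, 19.4, 111, 26.4 and 0. At least 10 counts were found in 2 of 5 aged libraries and in 6 of 7 young libraries. The log2 fold change was -1.05 ± 1.66 (SE, adjusted p = 0.999 by edgeR), between -3.51 and -0.39 on leaving out single libraries. It was -3.51 without aged library 1, -0.39 without young library 5 and -2.51 without aged libraries 1, 3 and 4. Exons of Cd9, Spp1 and Ch25h overlap those of the GENCODE genes Gm26728, Gm42793 and Gm26902, and reads of such pairs cannot be told apart without strand.

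**Figure D3:**
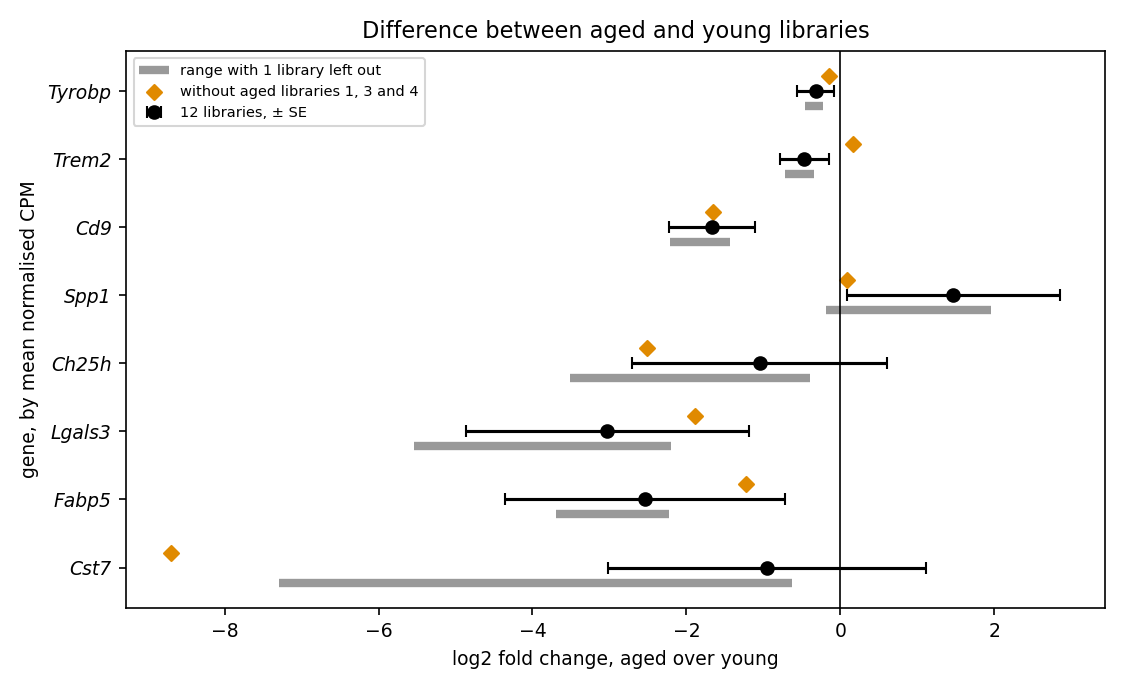
Log2 fold change, aged over young, of the 8 tested genes (rows, ordered by mean level): black points with 12 libraries ± SE, grey bars for the range with 1 library left out, orange diamonds without aged libraries 1, 3 and 4. The SE widened from 0.24 for Tyrobp to 2.06 for Cst7, and Trem2 moved to 0.17 and Cst7 to -8.7 without the 3 libraries.

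Presence in some libraries and absence from others was not particular to these genes. At most 3 counts in 1 library and at least 100 in another were found for 5 of the 8 tested members, against 51.1% of all tested genes. The 5 were Spp1, Lgals3, Cst7, Fabp5 and Ch25h, and each was missing from a different combination of libraries. Aged library 2 held all of them but Cst7, whereas aged library 5 was at or under 4 counts of each but Fabp5 and aged library 4 held more than 9 counts of Spp1 alone.

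Pairs of members seldom varied together across libraries. Of 45 pairs, correlated as log2(normalised CPM + 1) over 12 libraries, 1 passed adjustment over the 45 by Pearson's r, Tyrobp with Cd9 (permutation test with 100000 resamples, two-sided, p = 0.00086, adjusted p = 0.0387). None passed by Spearman's rho (adjusted p = 0.474 for Tyrobp and Cd9). The libraries fell into separate sets, with aged libraries 3, 4 and 5 and young library 4 low in both genes, so no pooled coefficient is given. Within the remaining 8 libraries r was 0.13 (exact permutation p = 0.752) and rho 0.12 (exact permutation p = 0.793), a split made after the values were seen. In the 7 young libraries, the low young library 4 among them, r was 0.81 (exact permutation p = 0.0415, adjusted p = 0.467) and rho 0.54 (exact permutation p = 0.236). Without the 2 young libraries farthest from the median of Tyrobp, r was -0.24. Trem2 with its adaptor Tyrobp gave r = 0.48 (permutation p = 0.114) and rho = 0.25 (permutation p = 0.430, adjusted p = 0.572 for r and 0.751 for rho), and r = 0.61 without the 2 libraries farthest from the median of Trem2. In the 7 young libraries alone none of the 45 pairs passed (exact permutation). In 17 of the 45 pairs one gene was Itgax or Gpnmb, which had at most 3 counts in any library.

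**Figure D4:**
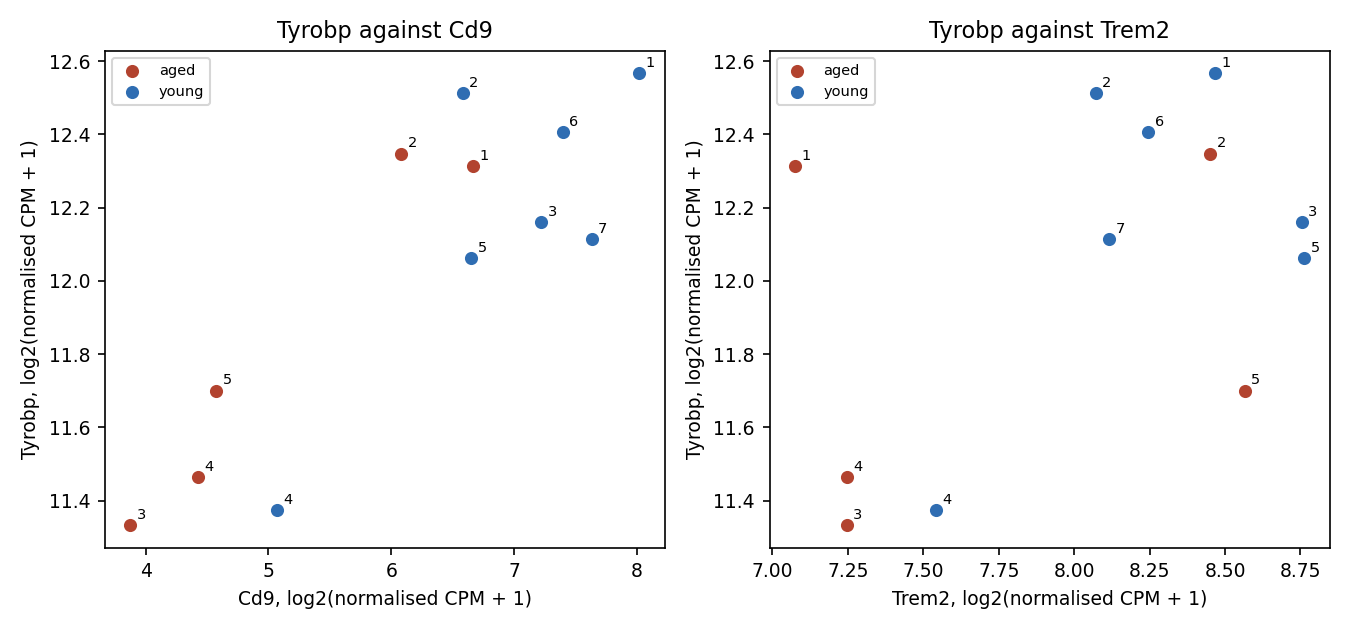
Tyrobp against Cd9 (left) and against Trem2 (right), each as log2(normalised CPM + 1), with 1 point per library (aged red, young blue, numbered). Aged libraries 3, 4 and 5 and young library 4 sat apart at the lower left for Cd9, and aged library 1 was high in Tyrobp but lowest in Trem2.

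For the 6 members averaging at least 10 normalised CPM, the nearest patterns were sought among 6693 genes of that level by Pearson's r of log2(normalised CPM + 1) over the 12 libraries. Trem2 was nearest to Pagr1a (r = 0.96) and Adsl (0.91). Tyrobp was nearest to the pseudogene Nutf2-ps2 (0.94), whose reads may be shared with its parent gene, and to Lyz2, the macrophage lysozyme (0.94). Cd9 was nearest to Vkorc1, a subunit of the vitamin K cycle (0.94), and Ssu72, an RNA polymerase II phosphatase (0.93). Spp1 was nearest to Smim19 (0.91) and Cisd3 (0.88), Lgals3 to AU040320 (0.90) and Poglut1 (0.87), and Ch25h to Zfp644 (0.87) and Dnm2 (0.85). None of these nearest genes was another member. Each r is the highest or next highest among the 6693 genes over only 12 libraries. Such picked values are high by selection and were not tested, so they are a description only.

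The wider list of genes tied to disease-associated microglia or lipid-laden macrophages was mostly well expressed, and none passed. Of 40 listed genes 35 were tested, 12 with positive and 23 with negative log2 fold changes (median -0.16, against -0.01 over all tested genes). At an unadjusted p under 0.05, 1 of the 35 was higher and 5 were lower, where 3.85% of all tested genes were higher and 2.12% lower. The 5 included Capg, at most 0.25 normalised CPM in aged libraries, which young libraries alone could carry past the filter. DESeq2, edgeR's bias-adjusted mode and both limma fits also called none. The fatty acid receptor Cd36 was at 449 ± 110 normalised CPM in aged libraries, against 733 ± 201 in young ones (adjusted p = 0.421 by edgeR). The lysosomal protease Ctsd was at 623 ± 323 in aged libraries, against 1181 ± 426 in young ones (adjusted p = 0.468 by edgeR). The cholesterol exporter Abca1 was at 551 ± 212 in aged libraries, against 361 ± 105 in young ones, and the efferocytosis receptor Axl at 166 ± 63.3 in aged libraries, against 95.4 ± 49.4 in young ones. Ctsd had a log2 fold change of -0.92, or -0.34 leaving out aged libraries 1, 3 and 4, and Abca1 one of 0.61, or 0.08. That of Cd36 was -0.71, or -0.69 without those libraries, and that of Axl 0.80, or 0.91. Without aged library 2, Apoe, Ctsb and Ctsz passed as lower (adjusted p = 0.0293, 0.027 and 0.033 by edgeR), where 0.141% of all tested genes were called as lower. These 3 are named after their values were seen.

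Genes tied to TREM2 and TYROBP signalling gave no call by edgeR or any other tool. The list was not confined to downstream genes and also held Adam10, Adam17, Ms4a4a and Ms4a6d. Of 17 tested, 7 were positive and 10 negative (median -0.06), and Adam10 alone had an unadjusted p under 0.05. Over all tested genes 3.85% were higher and 2.12% lower at that threshold. Adam10, a protease that sheds TREM2 from the cell surface, was at 641 ± 285 normalised CPM in aged libraries, against 363.5 ± 130 in young ones (log2 fold change 0.82, adjusted p = 0.593 by edgeR), and a value of -0.02 without aged libraries 1, 3 and 4. Ptpn6, the phosphatase SHP-1, was at 95.5 ± 27.6 in aged libraries, against 145 ± 46.5 in young ones, and the exchange factor Vav1 at 26.4 ± 12.4 in aged libraries, against 43.6 ± 14.9 in young ones. Ms4a4a, of a family known to modulate soluble TREM2 in humans, was at 1611 ± 351 in aged libraries, against 1422 ± 323 in young ones. Among other receptors that pair with TYROBP, 4 of 9 in the table were tested. Siglech was at 570 ± 94.1 in aged libraries, against 403 ± 82.1 in young ones (adjusted p = 0.601 by edgeR), Cd300c2 at 520 ± 140 and 653 ± 127, and Clec5a at 154 ± 75.0 and 180.5 ± 73.6, in aged and young libraries. Omitting aged libraries 1, 3 and 4 gave log2 fold changes of -0.33 for Ptpn6 (-0.60 with all), -0.39 for Vav1 (-0.73), 0.31 for Ms4a4a (0.18), -0.07 for Cd300c2 (-0.33) and -0.79 for Clec5a (-0.23). For Siglech it was 0.68 (0.50 with all). Trem1 and Trem3 averaged under 0.1 normalised CPM in both groups.

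Osteopontin receptors and the CD11 partners included 8 tested genes, 5 positive and 3 negative (median 0.46). Itgb1, the integrin beta 1 chain, was at 162 ± 42.4 normalised CPM in aged libraries, against 94.6 ± 34.2 in young ones (adjusted p = 0.697 by edgeR), and Itgav at 73.6 ± 36.9 in aged libraries, against 42.1 ± 15.6 in young ones. Their log2 fold changes were 0.78 for Itgb1 and 0.81 for Itgav, or 1.02 and 0.86 without aged libraries 1, 3 and 4. Tetraspanins related to Cd9 were negative in 8 of 10 (median -0.59). Tspan14 was at 20.3 ± 20.1 in aged libraries, against 80.4 ± 46.9 in young ones (log2 fold change -1.99, adjusted p = 0.591 by edgeR), Tspan4 at 53.4 ± 39.4 in aged libraries, against 99.2 ± 43.8 in young ones, and Cd53 at 4774 ± 1257 in aged libraries, against 3728 ± 725 in young ones. Omission of aged libraries 1, 3 and 4 gave log2 fold changes of -0.96 for Tspan14, -0.38 for Tspan4 (-0.89 with all) and -0.10 for Cd53 (0.36 with all). No gene of either list passed by edgeR or any other tool. At an unadjusted p under 0.05 there was 1 of each, where 3.85% of all tested genes were higher and 2.12% lower.

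The galectin list held 5 further genes, among them Lgals3bp, which encodes a galectin-binding protein and not a galectin. Of these 5, 4 were tested, and Lgals4 was at or under the floor in every library. Lgals1 was at 923 ± 316 normalised CPM in aged libraries, against 754 ± 245 in young ones, and Lgals8 at 61.6 ± 32.8 in aged libraries, against 110 ± 47.1 in young ones. The sign of Lgals1 turned without aged libraries 1, 3 and 4 (0.29 and -0.09), and that of Lgals8 did not (-0.84 and -1.03). Among cystatins and the proteases that cystatin F is known to target, cystatin C (Cst3) was at 16190 ± 3299 in aged libraries, against 23310 ± 5973 in young ones (log2 fold change -0.53, adjusted p = 0.661 by edgeR). The log2 fold change of Cst3 was -0.45 without aged libraries 1, 3 and 4. Cathepsin L (Ctsl) was at 629 ± 191 in aged libraries, against 863 ± 114 in young ones (adjusted p = 0.775 by edgeR), and its log2 fold change was -0.46, or -0.70 leaving out aged libraries 1, 3 and 4. In the oxysterol pathway around Ch25h, Insig1, which binds 25-hydroxycholesterol and restrains sterol synthesis, was at 1017 ± 639.5 in aged libraries, against 252 ± 107 in young ones (log2 fold change 2.02 ± 0.40, SE). Without aged libraries 1, 3 and 4 it was 0.60. The adjusted p of Insig1 was 0.139 by edgeR, 0.278 by limma with voom weights and 0.18 by limma on log2(FPKM + 1). It was 0.00132 in edgeR's bias-adjusted mode, 0.000532 by DESeq2 and 0.00593 by edgeR without aged library 2. Insig1 did not pass without aged libraries 1, 3 and 4. Hsd3b7, which acts on 25-hydroxycholesterol derivatives, was at 22.4 ± 24.9 in aged libraries, against 55.3 ± 24.0 in young ones (adjusted p = 0.999 by edgeR), and Cyp7b1 had no more than the floor in any library. The log2 fold change of Hsd3b7 was -1.30, or -1.17 without aged libraries 1, 3 and 4. No other gene of the galectin, cystatin and oxysterol lists passed by any tool.

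Homeostatic microglia genes, which are known to be turned down when the disease-associated programme is turned on, had 8 negative members of 10 tested (median -0.43), and none passed by edgeR or any other tool. Tmem119 was at 2.41 ± 2.92 normalised CPM in aged libraries, against 25.5 ± 24.1 in young ones (log2 fold change -3.40, adjusted p = 0.847 by edgeR), and P2ry13 at 235 ± 88.9 in aged libraries, against 326 ± 111 in young ones. Siglech, given above, was the gene of this list with an unadjusted p under 0.05, and its log2 fold change was positive (0.50). Of all tested genes 3.85% were higher and 2.12% lower at that threshold. Fits that omitted aged libraries 1, 3 and 4 gave log2 fold changes of -2.23 for Tmem119 and -0.17 for P2ry13 (-0.47 with all). Gpr34, at 1244 ± 414 in aged libraries, against 1107 ± 238 in young ones, had a log2 fold change of 0.17 that was -0.36 without aged libraries 1, 3 and 4.

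**Figure D5:**
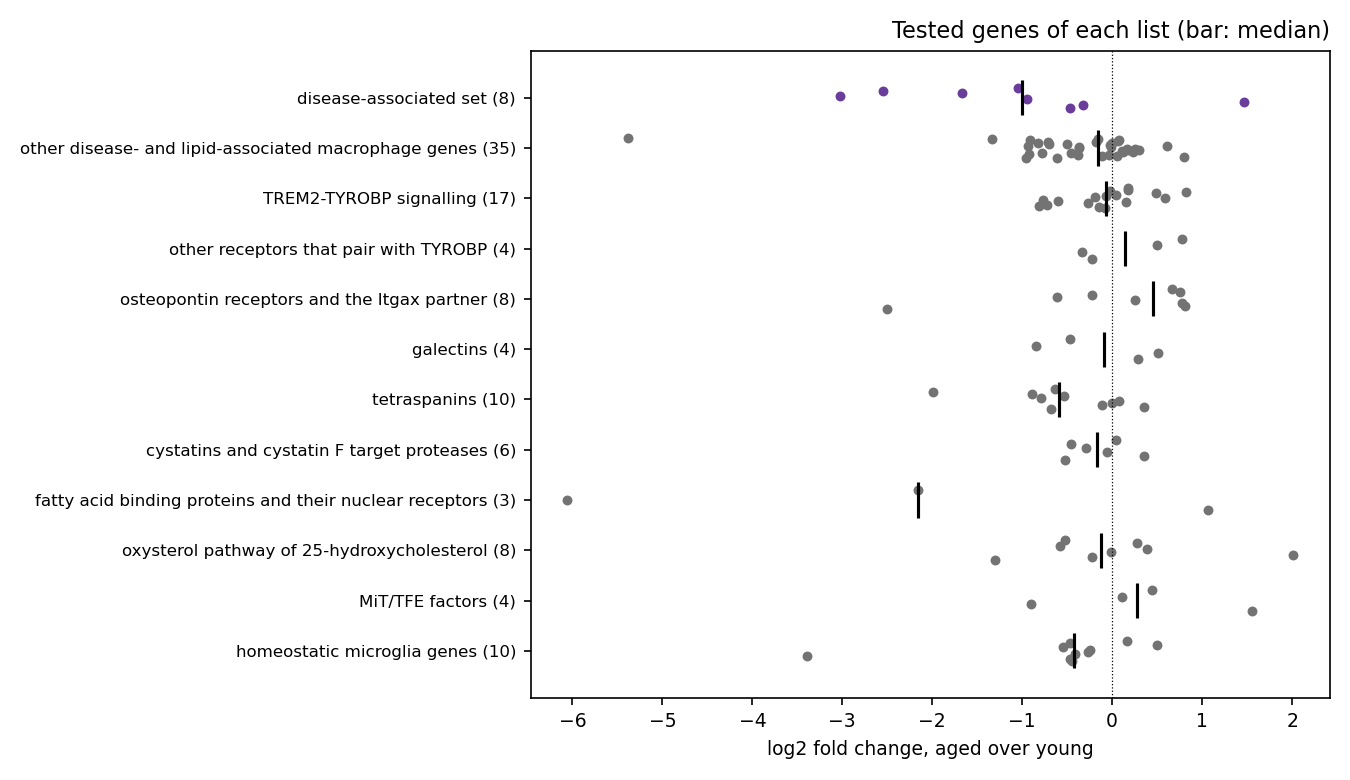
Log2 fold change, aged over young, of each tested gene (points) in the disease-associated set (purple) and 11 further lists (grey), with the number tested in brackets and a bar at the median. Medians lay between -2.16, from 3 fatty acid binding and receptor genes, and 0.46, and the disease-associated set had a median of -1.0 with a spread from -3.03 to 1.47.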

How the data were processed

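The 12 libraries (5 aged, 7 young) were grouped by their titles. The authors deposited estimated counts per gene and normalised values without a named unit, read here as FPKM because they scale with the library total and a transcript length. The submitters' processing notes name DESeq2 1.4.5, RSEM 1.2.12, HISAT2 2.0.4 and Bowtie2 2.2.5 with the GRCm38 build, and what each was used for is not stated. No annotation is named there. Per library, 88.2% to 90.6% of values in the deposited estimated counts were whole, and all were rounded.

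Counts were tested with edgeR 4.0.16 in R 4.3.3 (TMM, filterByExpr, glmQLFit with robust and legacy estimation, threshold 0.05), after the procedure was tested on simulated data. DESeq2 1.42.0, limma 3.58.1, other scalings and filters, and fits without single libraries were alternatives. Members, gene lists and tests were chosen with earlier results of these data known. All members are named. Of each other list, up to 2 higher and 2 lower genes with the smallest p were named, among those averaging at least 10 CPM. The replicate numbers were not taken as pairs. Floors cover counting error only. Gene positions are from GENCODE on GRCm38.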

Additional observations from a re-analysis of the deposited data

Results flagged for a closer look

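In 7 of the 18 groups examined 1 library lay far from the others of its group, where chance gives about 1 in 20 groups with normally distributed values. All 7 were high values of genes that were near 0 in at least 1 other library of the same group. Other young libraries reached 35.3 for Spp1, 46.3 for Ch25h and 33.1 for Lgals3. Spp1 was at 316 normalised CPM in aged library 3 and at 84.5 in young library 3. Cst7 was at 22.4 in aged library 3. Lgals3 was at 16.4 in aged library 2 and at 113 in young library 1. Ch25h was at 72.9 in aged library 1 and at 111 in young library 5.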

How the results depend on the processing

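No member was called under any of the 20 alternatives, of which Cst7 was tested in 15. Over all genes 1 gene was called as higher and 0 as lower in aged libraries. The counts as higher and lower were 36 and 2 with edgeR's bias-adjusted mode, 64 and 57 with DESeq2, and 3 and 3 with limma on log2(FPKM + 1). As higher, 13 were called without a filter, 2 with voom weights and 0 without aged libraries 1, 3 and 4. Leaving out single libraries gave 0 to 61 as higher and 0 to 14 as lower, both maxima without aged library 2. With the replicate number as a block 0 genes were called. Same-numbered libraries did not deviate together (r from -0.04 to 0.07), and none of the 5 aged libraries correlated best with its own number, so the numbers do not pair them. The log2 fold change of Spp1 turned to -1.92 with voom weights, -0.38 on the FPKM scale, -0.34 with the replicate block and between -0.19 (without aged replicate 3) and 1.96 on leaving out single libraries, and that of Trem2 to 0.17 without aged libraries 1, 3 and 4. The cause was not tested. Other alternative values for single members (150) kept their sign and stayed uncalled. The median of all genes shifted to -0.13 with voom weights, -0.17 on the FPKM scale and -0.15 with the block. No pair of members passed without aged libraries 1, 3 and 4 (0 in place of 1). Gpnmb and Itgax were too low to be fitted under the filter, and genes under 50 CPM had wide errors.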

Other observations

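Cd209a, a C-type lectin listed among the dendritic cell markers, had 2 separate ranges that followed age in part (log2 fold change 1.09, adjusted p = 0.589 by edgeR). It was at 1272 to 2504 normalised CPM in the 5 aged libraries and at 2164 and 1866 in young libraries 1 and 2, but at 405 to 496 in young libraries 3 to 7. Capg, an actin-capping protein on the list of disease-associated genes, averaged 0.145 normalised CPM in aged libraries, against 6.22 in young ones (unadjusted p = 0.0201, not called by edgeR). It was named after its values were seen.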
